A study of Schizosaccharomyces pombe with 9 samples.

Results

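The genes described here are the 4 that fission yeast (Schizosaccharomyces pombe) uses to take up and split the disaccharides sucrose and maltose. They are inv1 (SPCC191.11), agl1 (SPAPB24D3.10c), mal1 (SPBC1683.07) and sut1 (SPAC2F3.08), 4 of the 5323 features in the table. They were picked by name for their function, at a time when earlier results of these data were known. Their mRNA was measured by RNA-seq of poly(A) RNA in 9 cultures, 1 library for each of 3 strains in each of 3 media. The strains were labelled WT, tup11∆/tup12∆ (deleted for the paired co-repressor genes tup11 and tup12) and tup11∆/tup12∆/php5∆ (also deleted for php5, which codes for part of the CCAAT-binding factor). Cultures were kept for 2 h in glucose-rich medium (yeast extract with 6% glucose), glucose-starved medium (yeast extract with 0.1% glucose and 3% glycerol) or nitrogen-starved medium (minimal medium without nitrogen, with 1% glucose). The study asked how activation of genes is kept specific to one stress. The glucose-starved culture differed from the glucose-rich one in added glycerol as well as in glucose, and these cannot be told apart. Nitrogen starvation differed from the glucose-rich culture in the base medium and the glucose content as well as in nitrogen.

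Sucrose and maltose cannot enter glycolysis until they are split. Inv1 is an invertase that is exported and splits sucrose into glucose and fructose outside the plasma membrane, and Agl1 is an exported alpha-glucosidase that releases glucose from maltose. Mal1 is a maltase of the cell interior, fed by Sut1, a proton symporter of the plasma membrane for maltose and sucrose. While glucose is plentiful, genes for the use of other sugars are kept off by glucose repression, in which the zinc-finger repressor Scr1 and the Tup11 and Tup12 co-repressors take part, and the activators Rst2 and Atf1 act when glucose runs low.

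The labels were checked against the deleted genes. The level of tup11 was 41.9 to 67.4 TPM in the WT libraries and at most 0.418 TPM in the other 6. That of php5 was 61.6 to 126 TPM where its gene should be present and 8.92 to 30.2 TPM in the libraries labelled php5∆. Reads of php5 were thus lower but not absent there, at 0.145 (glucose-rich) to 0.283 (glucose-starved) of the level with the tup11∆/tup12∆ label. Reads of tup12 did not follow the labels, with 107 to 157 TPM in WT and still 54.5 to 117 TPM in the 6 libraries labelled tup12∆, so mutant libraries are named below as libraries labelled with their genotype. Comparisons within WT use none of them.

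The DNA upstream of the genes was searched on both strands for TGACGT (the core of the cAMP response element, bound by Atf1), for the C-rich CCCCTC, its variant CCCCGC and the variant CCCCAC (elements of the kind that zinc-finger factors such as Rst2 and Scr1 bind) and for CCAAT (the box of the CCAAT-binding factor). In the 250 bases before the annotated transcript start, sut1 held 1 TGACGT, which 5.52% of 5112 such windows held. Those of inv1 and agl1 held none of the motifs, and that of mal1 held 2 CCAAT, as part of the transcript of urh1 on the other strand. The following stretches, from the 1000 bases before the transcript starts, are shown because they hold a C-rich or TGACGT match. They are RefSeq sequence (ASM294v3), written 5′ to 3′ along the strand of each gene, with motif matches in capitals (ATTGG is CCAAT and ACGTCA is TGACGT on the other strand).
inv1, chrIII:1722884-1722921, plus strand: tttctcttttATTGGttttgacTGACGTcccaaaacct
agl1, chrI:2971373-2971451, minus strand: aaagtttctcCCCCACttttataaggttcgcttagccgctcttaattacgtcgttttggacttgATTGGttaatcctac
sut1, chrI:3935260-3935285, plus strand: tcacagtgtaACGTCAacatgacatt

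The TGACGT of inv1 began 528 bases before its transcript start, close to a CCAAT box that began 540 bases before it. The CCCCAC of agl1 shown here began 453 bases before its start codon. At least 1 CCCCAC was present in 8.16% of 5112 windows of 1000 bases before a coding start. TGACGT was present in 14.9% of windows of 1000 bases before a transcript start, and CCAAT in 85.9%, where inv1 held 2, agl1 2, mal1 6 and sut1 4. A match is a description of the letters, and binding was not measured.

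The invertase gene inv1 lies on chromosome III, plus strand, with 1 coding segment at 1724306 to 1726051 (581 codons) inside a transcript annotated at 1723434 to 1726164. In WT its level was 8.03 TPM in the glucose-rich library, 1738 TPM in the glucose-starved one and 24.6 TPM in the nitrogen-starved one. In the libraries labelled tup11∆/tup12∆ it was 678, 1642 and 2712 TPM in the same order of media. The libraries labelled tup11∆/tup12∆/php5∆ gave 426, 3779 and 3207 TPM. The glucose-rich and nitrogen-starved WT libraries were thus far below the other 7, and the lowest value of those 7 was the glucose-rich one of the triple-mutant label. From lowest to highest, inv1 spanned 471-fold, and no neighbours in that order had overlapping counting intervals. There is no replicate of any culture here or below, and in bulk RNA a lower level in every cell and fewer cells with the mRNA cannot be told apart.

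The exported alpha-glucosidase gene agl1 lies on chromosome I, minus strand, coding at 2968079 to 2970988 (969 codons), with no leader annotated before the start codon. WT gave 2.56 TPM in the glucose-rich, 781 TPM in the glucose-starved and 15.4 TPM in the nitrogen-starved library. With the label tup11∆/tup12∆ the levels were 92.9, 726 and 1676 TPM, and with the label tup11∆/tup12∆/php5∆ 451, 2625 and 2682 TPM, in the same order. Again the glucose-rich and nitrogen-starved WT libraries were lowest, and the 2 starved libraries of the triple-mutant label were highest, over a span of 1047-fold. A long noncoding RNA on the opposite strand, SPNCRNA.3340, covers 100% of the coding bases of agl1, and reads from the 2 cannot be told apart in libraries without strand.

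Inside the cell, mal1 encodes the maltase, on chromosome II, plus strand, coding at 153562 to 155301 (579 codons) in a transcript at 152911 to 155630. Its WT levels were 13.2 TPM in the glucose-rich, 144 TPM in the glucose-starved and 90.4 TPM in the nitrogen-starved library. The label tup11∆/tup12∆ gave 23.3, 68.9 and 232 TPM, and the label tup11∆/tup12∆/php5∆ 36.1, 508 and 116 TPM. All 3 glucose-rich libraries were the lowest, and the glucose-starved library of the triple-mutant label stood above the other 8. Opposite-strand noncoding RNAs cover 65.9% of the coding bases, and the span from lowest to highest was 38.5-fold.

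The transporter gene sut1, on chromosome I, plus strand, has 2 coding segments between 3936053 and 3937780 (553 codons) and a transcript at 3935361 to 3938149. In WT it measured 18.9 TPM in the glucose-rich, 86.5 TPM in the glucose-starved and 77.9 TPM in the nitrogen-starved library. Levels with the label tup11∆/tup12∆ were 26.7, 82.6 and 122 TPM, and with the label tup11∆/tup12∆/php5∆ 35.9, 319 and 127 TPM. As for mal1, the 3 glucose-rich libraries were lowest and the glucose-starved library of the triple-mutant label was highest, but the span was only 16.9-fold. Counting intervals overlapped between the glucose-starved libraries of WT and the tup11∆/tup12∆ label, and between the nitrogen-starved libraries of both mutant labels. Opposite-strand noncoding RNAs cover 76.7% of the coding bases of sut1.

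**Figure D1:**
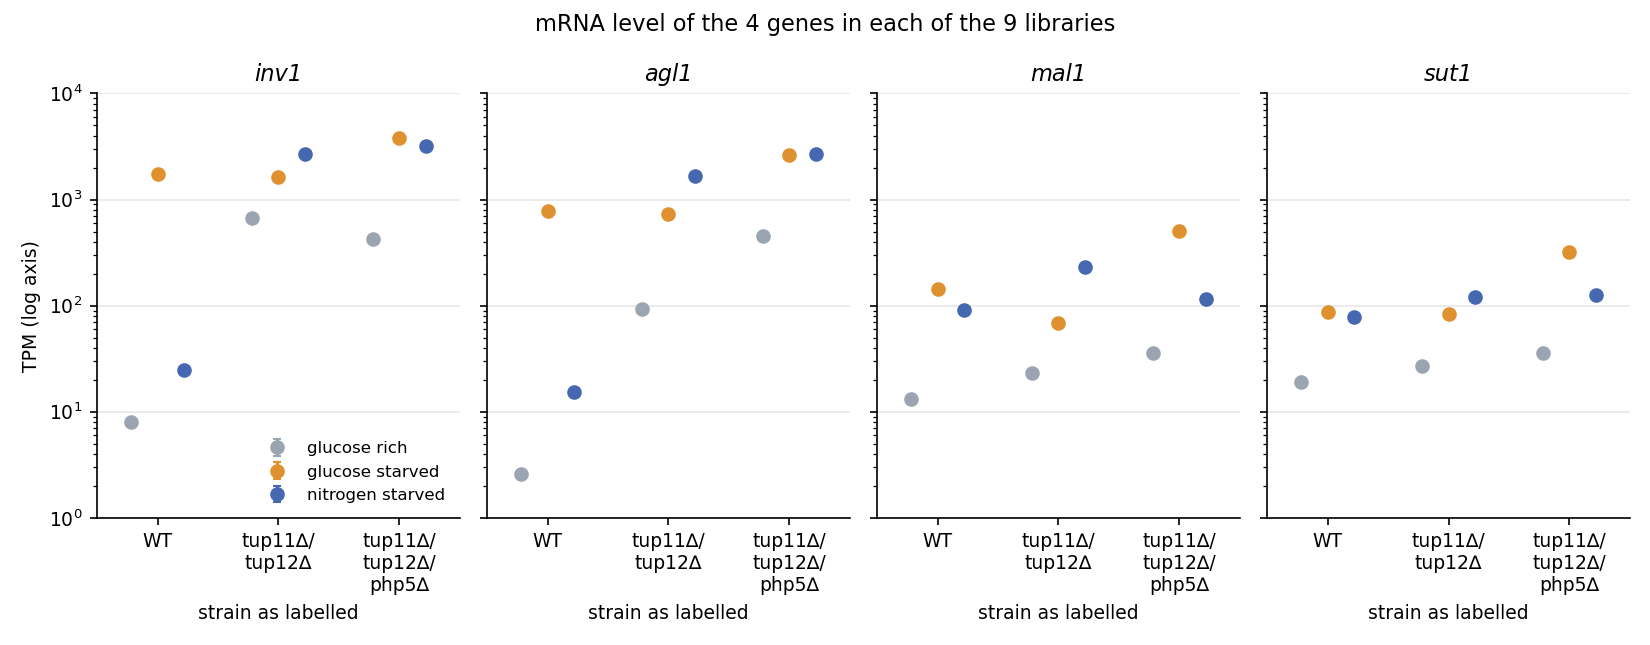
TPM on a log axis (vertical) of inv1, agl1, mal1 and sut1 in the 9 libraries, by strain as labelled (horizontal) and medium (colour). Each point is 1 library, and 95% counting intervals are smaller than the points. In WT the nitrogen-starved points of inv1 (24.6 TPM) and agl1 (15.4 TPM) lie far below the glucose-starved ones (1738 and 781 TPM), while those of mal1 (90.4 TPM) and sut1 (77.9 TPM) lie close to them (144 and 86.5 TPM).

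The first question was how the genes differed between the starved and glucose-rich media, beginning with glucose starvation of WT cells. All 4 were over 2-fold higher in the glucose-starved than in the glucose-rich library, against 19.4% of 5099 features tested. The exported enzymes stood out in size. The ratio of inv1 was 216 (95% interval 203 to 231), the 14th highest of all features tested. For agl1 it was 305 (279 to 334), the 10th highest. Both rest on low glucose-rich levels, and with 10 TPM added to each value the ratio was 96.9 for inv1 and 63.0 for agl1, in the other order. The intracellular route moved less, with a ratio of 10.9 (10.3 to 11.5) for mal1 and 4.58 (4.36 to 4.81) for sut1. The median feature tested was at 0.30 on the log2 scale.

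In nitrogen-starved against glucose-rich WT all 4 were also past 2-fold higher, against 18.9% of 5123 features, without the lead of the exported enzymes. The ratio was 3.06 (2.84 to 3.31) for inv1 and 6.02 (5.46 to 6.64) for agl1, 6.86 (6.49 to 7.25) for mal1 and 4.13 (3.93 to 4.34) for sut1. Set against the glucose-starved WT library, inv1 reached 1.42% and agl1 1.97% of their level there. The maltase mal1 reached 63.0% and the transporter sut1 90.1%. With 10 TPM added to each value 3 of the 4 genes were past 2-fold, against 11.6% of features. The ratio was then 1.92 for inv1 and 2.02 for agl1.

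In the libraries labelled tup11∆/tup12∆, the exported enzymes started from a glucose-rich level of 678 TPM for inv1 and 92.9 TPM for agl1. All 4 genes passed 2-fold on glucose starvation, against 17.6% of 5096 features, with ratios of 2.42 (2.40 to 2.44) for inv1 and 7.81 (7.69 to 7.93) for agl1. Those of mal1 and sut1 were 2.95 (2.82 to 3.085) and 3.09 (2.96 to 3.22). At a 3-fold threshold, 2 of the 4 genes were past it, against 7.42% of features. The median feature tested was at 0.18 on the log2 scale.

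On nitrogen starvation with the same label all 4 were past 2-fold, against 28.8% of 5109 features. The ratio of inv1 was 4.002 (3.97 to 4.03) and that of agl1 18.0 (17.8 to 18.3), the 62nd highest. For mal1 it was 9.93 (9.54 to 10.3) and for sut1 4.56 (4.37 to 4.75). Each of the 4 was higher in the nitrogen-starved than in the glucose-starved library of this label, the reverse of WT. The median feature tested was at 0.55 on the log2 scale.

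With the label tup11∆/tup12∆/php5∆, all 4 were past 2-fold on glucose starvation, where only 8.22% of 5109 features were higher and 38.2% were lower past that fold. The ratio was 8.87 (8.78 to 8.96) for inv1, 5.82 (5.78 to 5.87) for agl1, 14.1 (13.6 to 14.6) for mal1 and 8.87 (8.57 to 9.19) for sut1. The median feature in this comparison was at -0.70 on the log2 scale, and scaling by size factors brought it to -0.02 and the ratios to 14.2, 9.31, 22.5 and 14.2. Nitrogen starvation with this label gave 4 of 4 past 2-fold, against 14.5% of 5121 features, with ratios of 7.53, 5.95, 3.21 and 3.53 in the same order of genes and the median feature at 0.26 on the log2 scale. Both starvations of a strain were set against one glucose-rich library, so their ratios are not independent.

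**Figure D2:**
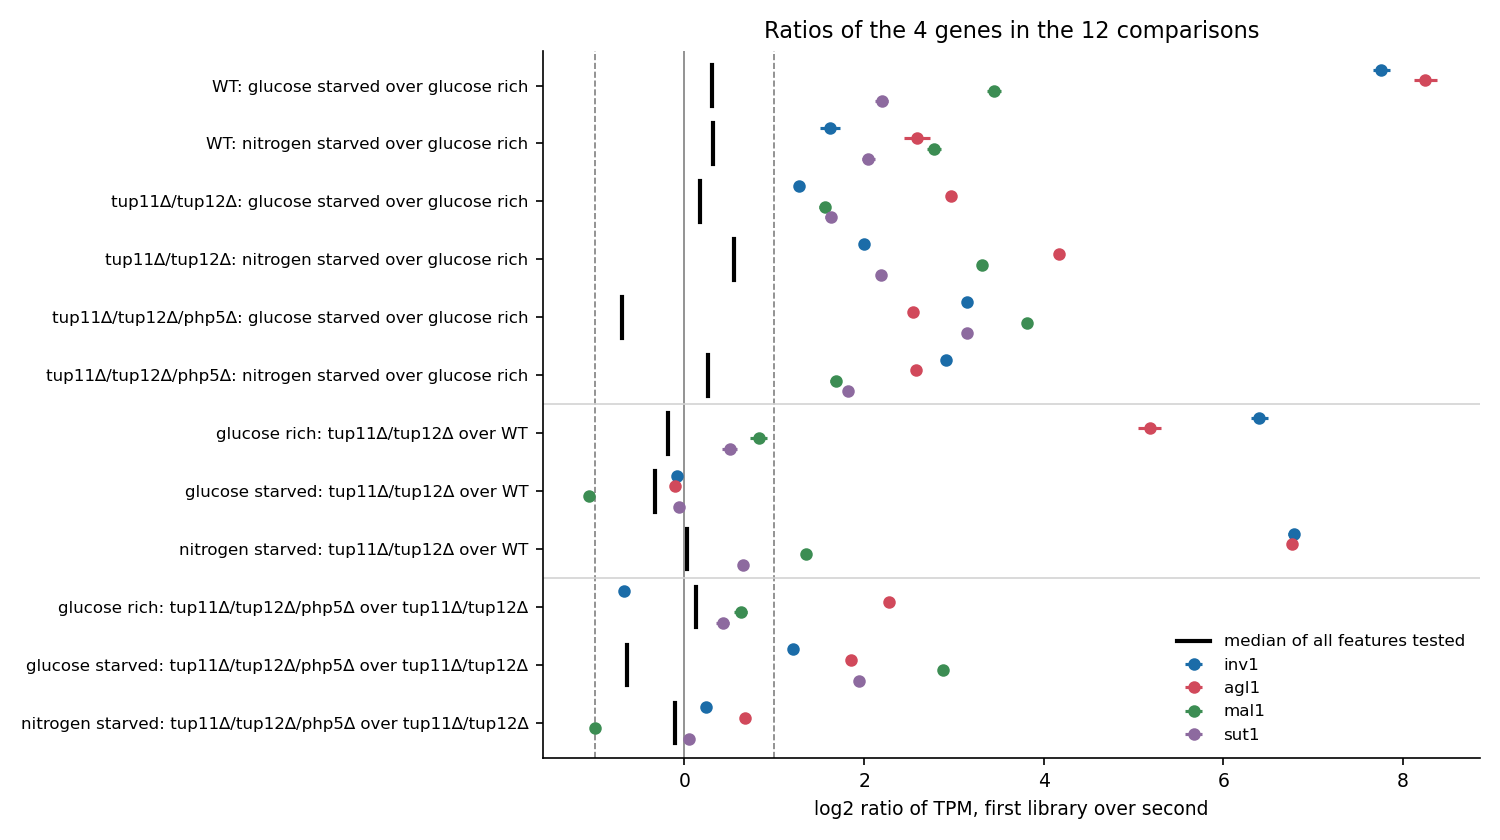
Log2 ratio of TPM (horizontal) of the 4 genes in the 12 comparisons (vertical), with 95% counting intervals, the median of all features tested (black bars) and the 2-fold limits (dashed lines). All 4 genes lie past the upper limit in the 6 starvation comparisons, and inv1 and agl1 lie near 7.76 and 8.25 in glucose-starved WT.

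The second question was how the label tup11∆/tup12∆ differed from WT in each medium. In glucose-rich medium 2 of the 4 genes, both exported enzymes, were past 2-fold higher with the label tup11∆/tup12∆ than in WT, against 3.88% of 5104 features. The ratio of inv1 was 84.4 (79.1 to 90.1), the 16th highest, and that of agl1 36.3 (33.2 to 39.7), the 21st highest. With 10 TPM added to each value they were 38.1 and 8.19. Ratios of 1.77 (1.66 to 1.89) for mal1 and 1.42 (1.34 to 1.499) for sut1 stayed under 2-fold, though with size factors mal1 was just past it at 2.01. Even so, the glucose-rich level of this label was 39.0% of the glucose-starved WT level for inv1 and 11.9% for agl1, beside 16.3% for mal1 and 30.9% for sut1. On the same scale glucose-rich WT stood at 0.462% for inv1, 0.328% for agl1, 9.18% for mal1 and 21.8% for sut1.

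In glucose-starved medium the same contrast gave ratios near 1 for 3 genes, 0.945 (0.938 to 0.951) for inv1, 0.929 (0.921 to 0.937) for agl1 and 0.955 (0.924 to 0.987) for sut1. These were above 1 under each of the 3 other scalings (1.02 to 1.19 for inv1, 1.004 to 1.17 for agl1 and 1.03 to 1.20 for sut1), so they have no direction, and the median feature was at -0.33 on the log2 scale. Only mal1 was past 2-fold lower, 1 of 4 genes against 6.75% of 5099 features, with a ratio of 0.480 (0.465 to 0.494). Scaled by size factors it was 0.602 and no longer past 2-fold.

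In nitrogen-starved medium 3 of the 4 genes were past 2-fold higher with the label tup11∆/tup12∆, against 5.46% of 5125 features. The ratio of inv1, 110 (106 to 115), was the 6th highest of all features tested and that of agl1, 109 (104 to 113), the 8th highest, which was 66.3 with 10 TPM added to each value. The maltase gene mal1 had a ratio of 2.56 (2.496 to 2.63). For sut1 it was 1.57 (1.52 to 1.62), under the threshold. The exported enzymes thus exceeded their glucose-starved WT level in this library, at 156% for inv1 and 215% for agl1.

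The third question was how php5∆ in the label changed the levels beside tup11∆/tup12∆ alone. In glucose-rich medium 1 of the 4 genes was past 2-fold higher, against 4.98% of 5100 features. This was agl1, with a ratio of 4.85 (4.77 to 4.93), the 57th highest. The other exported enzyme moved the other way, with a ratio of 0.629 (0.622 to 0.636) for inv1, short of 2-fold. Those of mal1 and sut1 were 1.55 (1.47 to 1.62) and 1.34 (1.28 to 1.41), with the median feature at 0.13 on the log2 scale.

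After glucose starvation all 4 genes were past 2-fold higher with the label that includes php5∆, against 5.79% of 5099 features higher and 34.4% lower. The maltase mal1 led with a ratio of 7.37 (7.18 to 7.57), the 49th highest. Ratios of the other three were 3.86 (3.76 to 3.96) for sut1, 3.62 (3.59 to 3.64) for agl1 and 2.30 (2.29 to 2.32) for inv1. The median feature lay at -0.64 on the log2 scale, and with size factors, which put it at 0.03, the ratios were 11.7, 6.13, 5.75 and 3.66. This one library, low for many features, enters every ratio named here, and its part in them was not tested.

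Under nitrogen starvation inv1 differed little between the labels, with a ratio of 1.18 (1.18 to 1.19), and so did sut1, with 1.04 (1.01 to 1.07). That of agl1 was 1.60 (1.59 to 1.61). The level of mal1 fell from 232 to 116 TPM, a ratio of 0.4995 (0.486 to 0.513), and so 1 of 4 genes was just past 2-fold lower against 3.32% of 5119 features. Under each of the 3 other scalings it was short of 2-fold, and the median feature was at -0.10 on the log2 scale.

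Within a library the genes kept no fixed proportion. The ratio of agl1 to inv1 on the TPM scale was 0.319 in glucose-rich WT, 0.449 in glucose-starved WT and 0.627 in nitrogen-starved WT. With the label tup11∆/tup12∆ it was 0.137, 0.442 and 0.618, close to WT in both starved media and lower in the glucose-rich one. With the triple label it was 1.06, 0.695 and 0.836, and only in that glucose-rich library was agl1 above inv1.

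The ratio of mal1 to sut1 stayed between 0.699, in glucose-rich WT, and 1.90, in the nitrogen-starved library labelled tup11∆/tup12∆. In contrast, inv1 was below mal1 in glucose-rich and nitrogen-starved WT, with ratios of 0.609 and 0.272. In the other 7 libraries it was above, from 7.44 in the glucose-starved triple label to 29.0 in the glucose-rich library labelled tup11∆/tup12∆.

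**Figure D3:**
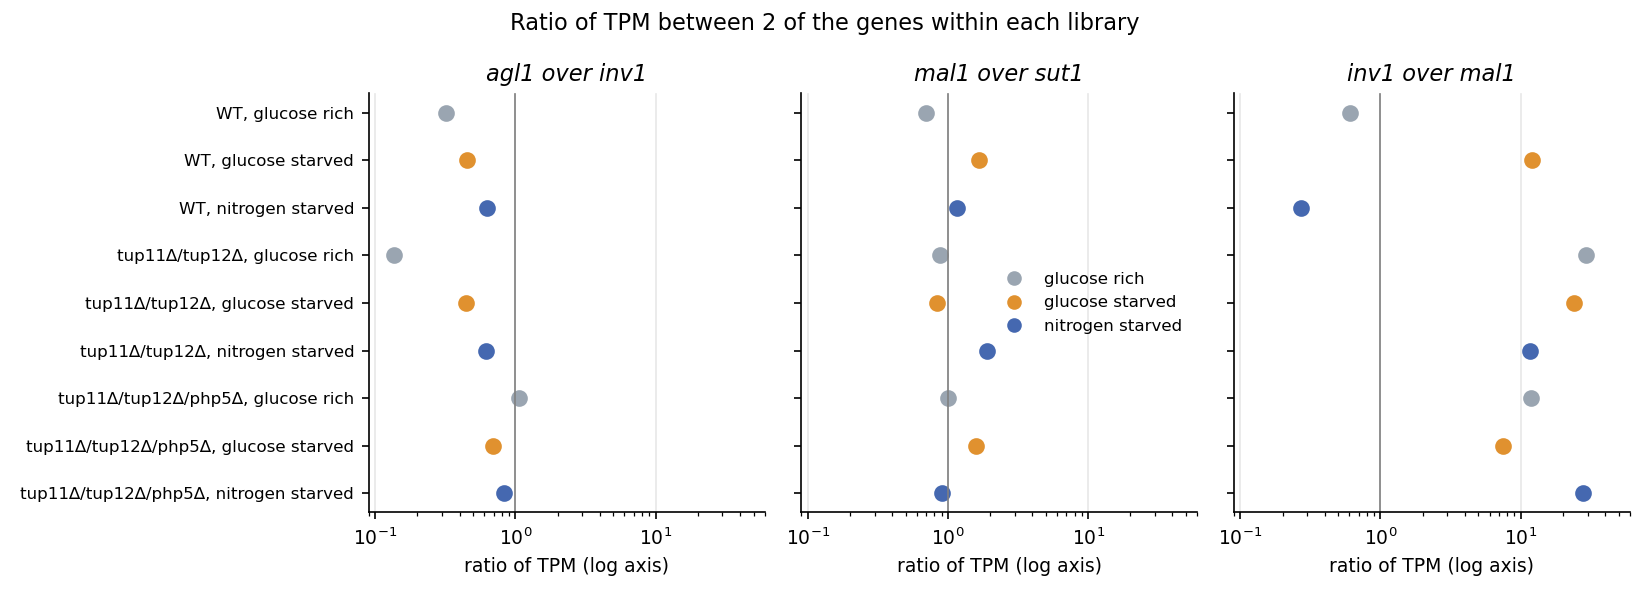
Ratio of TPM on a log axis (horizontal) of agl1 to inv1, mal1 to sut1 and inv1 to mal1 in each of the 9 libraries (vertical), coloured by medium. Each point is 1 library. The ratio of mal1 to sut1 stays between 0.699 and 1.90, while that of inv1 to mal1 is 0.609 and 0.272 in glucose-rich and nitrogen-starved WT and at least 7.44 elsewhere.

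Over the 9 libraries, which share strains and media in threes, the levels as log2(TPM + 1) were most alike within each pair. Pearson's r was 0.968 between inv1 and agl1 and 0.974 between mal1 and sut1. Across the pairs it was 0.667 to 0.746. By rank the pairs were less distinct, since Spearman's rho was 0.967 and 0.933 within the pairs and 0.80 to 0.933 across them.

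Among 4957 features, the 3 most alike to inv1 were gal7 (the galactose-1-phosphate uridylyltransferase of galactose use, r = 0.978), its upstream neighbour SPCC191.10, an uncharacterized protein (0.970), and agl1. For agl1 they were inv1, gal7 (0.965) and lsd90 (0.963). In the order of media within WT, gal7 measured 12.1, 309.5 and 21.9 TPM, low in the glucose-rich and nitrogen-starved libraries like the exported enzymes. SPCC191.10 measured 0.167, 10.98 and 0.167 TPM there and 8.33 to 34.8 TPM in the 6 mutant libraries.

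The features most alike to mal1 were sut1, pka1 (the catalytic subunit of protein kinase A, r = 0.964) and slm1 (annotated as a cytoskeletal signaling protein, 0.962). For sut1 they were SPAC2F3.07c (0.986), mug147 (0.979) and pka1 (0.978). SPAC2F3.07c is annotated on the opposite strand inside the leader of sut1, and its reads cannot be told apart from those of the sut1 transcript without strand. Its levels were 13.1, 80.3 and 69.1 TPM in WT, close to those of sut1. By Spearman's rank correlation 1 of the 3 features was shared for each of the 4 genes.

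Directly beyond mal1 on the same strand lies ght4, a hexose transporter gene. Its levels were 13.5, 703 and 87.1 TPM in WT, 59.4, 269 and 203 TPM with the label tup11∆/tup12∆ and 46.6, 587 and 169 TPM with the triple label. It was lowest in glucose-rich WT, as mal1 was, with r = 0.864 between them. The gene urh1, for a uridine ribohydrolase, runs away from mal1 on the other strand from the same point. It measured 16.9, 54.1 and 3317 TPM in WT, a different pattern (r = 0.260). The left neighbour of mal1, the transporter gene thi7 (r = 0.170), and the flanks of sut1, kap104 (0.119) and hem1 (0.403), were also less alike.

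**Figure D4:**
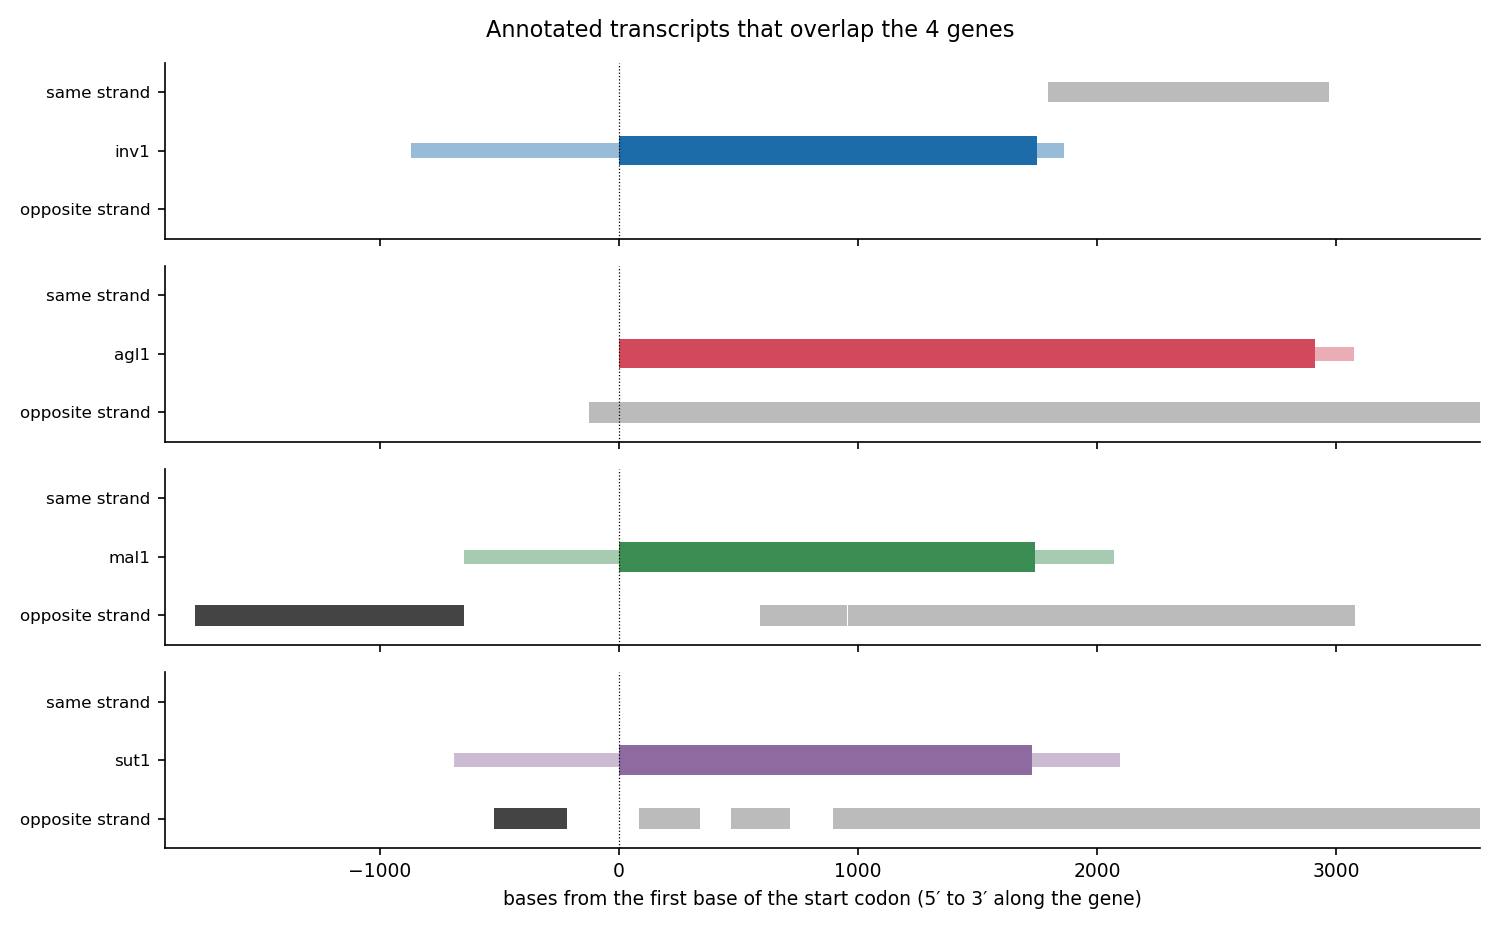
Each gene drawn from the first base of its start codon (horizontal axis in bases), with coding part (thick bar), rest of the annotated transcript (thin bar) and overlapping annotated transcripts (dark grey for protein-coding, light grey for noncoding). Opposite-strand transcripts cover 100% of the coding part of agl1 but 0% of that of inv1.

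No 50-base stretch of the coding sequence of inv1, agl1, mal1 or sut1 occurred elsewhere in the genome, a count of 0 for each. Besides inv1 the annotation names a further beta-fructofuranosidase, inv2 (SPAC8E11.01c), which stayed between 26.9 and 52.9 TPM in all 9 libraries. It exceeded inv1 only in glucose-rich WT, at 32.7 TPM, and in nitrogen-starved WT, at 34.9 TPM.

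Other gene lists were set beside the 4 genes, and their counts stand beside those of all features tested. Of all features, 19.4% were past 2-fold higher and 9.75% lower on glucose starvation of WT, and 18.9% higher and 10.7% lower on nitrogen starvation, with median log2 ratios of 0.30 and 0.32. For the label tup11∆/tup12∆ over WT, 3.88% were higher and 2% lower in glucose-rich medium, 4.63% and 6.75% in glucose-starved medium, and 5.46% and 4.55% in nitrogen-starved medium, with medians of -0.19, -0.33 and 0.02.

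Of 12 other hydrolases of di- and polysaccharides and galactosides, 5 were past 2-fold higher and 1 lower on glucose starvation of WT, with a median log2 ratio of 0.81. Nitrogen starvation of WT raised 5 and lowered none, with a median of 0.82. The gene lower on glucose starvation was agn1, for a cell wall glucan endo-1,3-alpha-glucosidase, listed because its product name holds alpha-glucosidase. It measured 119.8 TPM in glucose-rich, 40.0 TPM in glucose-starved and 334 TPM in nitrogen-starved WT, and so was among the 5 higher there. The glucan 1,4-alpha-glucosidase gene SPAC4H3.03c went from 4.96 TPM in glucose-rich to 190.5 and 41.1 TPM in glucose-starved and nitrogen-starved WT. The alpha-glucosidase gene gto1 stayed at 13.5 to 30.7 TPM in WT and reached 522 TPM in the glucose-starved library labelled tup11∆/tup12∆. With that label against WT, 1 hydrolase was past 2-fold higher and 1 lower in glucose-rich medium (median log2 ratio -0.08). The lower one was the melibiase gene mel1, named after its values were seen, at 0.066 against 0.460 TPM. Both levels are very low, and the ratio of 0.144 had a wide counting interval (0.0499 to 0.342). In glucose-starved medium 1 hydrolase was higher with that label and in nitrogen-starved medium 3, with none lower.

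Among 5 genes of hexose phosphorylation and galactose use, 4 were past 2-fold higher on glucose starvation of WT (median log2 ratio 2.19) and 1 on nitrogen starvation (0.63). With the label tup11∆/tup12∆ against WT, 3 were higher in glucose-rich medium, with a median log2 ratio of 2.71, and 3 in nitrogen-starved medium, with 2.20. All of these were genes of galactose use, such as gal1, the galactokinase, at 21.2 TPM in glucose-rich WT and 139 TPM in the same medium with that label. The hexokinase gene hxk2 was at 613 and 1117 TPM in the same libraries and so under 2-fold. In glucose-starved medium 2 of the list were higher with that label and 1 lower, with a median log2 ratio of 0.76. The lower one was hxk2, at 1476 TPM in WT and 592 TPM with the label, a ratio of 0.401.

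Of 18 genes for glucose repression and its signalling, 8 were past 2-fold higher on glucose starvation and 7 on nitrogen starvation of WT, none lower, with median log2 ratios of 0.99 and 0.87. Those for scr1 (13.8 to 49.9 TPM) and rst2 (40.2 to 105 TPM), named here after their values were seen, were among the 8. With the label tup11∆/tup12∆ against WT, 1 was higher and 1, tup11, lower in glucose-rich medium, and the median was 0.10. In glucose-starved medium 1 was higher and 1, tup11, lower. In nitrogen-starved medium 3 were higher and 2, tup11 and tup12, lower. The label names both as deleted, so these lower counts say nothing of the rest of the list. For pka1 the level was 35.3 TPM in glucose-rich WT and 299.9 TPM in the glucose-starved library with the triple label, its highest.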

How the data were processed

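Poly(A)-selected RNA of 9 fission yeast cultures was sequenced from libraries that were not strand-specific. The submitters' processing notes name fastp, HISAT2, SAMtools and featureCounts and the build ASM294v2. Tool versions are not given in the sources used here. The authors deposited one table of TPM (transcript abundance normalised to length and library) per feature, beside the feature's length, which for protein-coding genes is the coding length, so TPM is comparable between genes per length. Samples were grouped by the genotype and treatment of their labels. No column of a sample was left unused.

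Because TPM times length is a whole multiple of one step in each library, the reads behind every value were recovered, and 100% of values came out whole within 0.01 read. The libraries held 36652045 to 54303622 reads assigned to features. With 1 library per group there was no replicate error and no test. Ratios of TPM carry exact Clopper-Pearson intervals at 95% and levels carry exact Poisson intervals. Both cover counting error only, and may be too narrow even for that, because amplified reads are not independent molecules. A feature was tested in a comparison where the library with the higher TPM held at least 10 reads, and called where the ratio was over 2 or under 0.5. Likeness was Pearson's r of log2(TPM + 1) over the 9 libraries, among 4957 features that reached 10 TPM in at least 1 library.

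The text names the 4 genes, the 3 features most alike to each, the annotated neighbours of mal1 and sut1, and for each of the gene lists at most 4 genes, those with the highest TPM in any library. The genes and lists were chosen with earlier results of these data known, and inv2, scr1, rst2 and mel1 were named outside this rule after their values were seen, and tup11, tup12 and php5 for the check of the labels. Sequences and annotation came from RefSeq (ASM294v3), and 1 further stretch upstream of agl1 is not reported here. For each of the 2740 genes without an intron in its coding part, the deposited table and this annotation gave equal ends. Alternatives were pseudocounts of 1 and 10 TPM, thresholds of 1.5-fold and 3-fold, 3 other scalings of the libraries, a minimum of 10 TPM, Spearman's rank correlation, and other promoter windows, of which the window before the transcript start was chosen after the data were seen. The scripts were tested on simulated data and ran under Python 3.11.15 with scipy 1.17.1 for intervals, pandas 2.3.3 and numpy 2.4.6 for tables, and matplotlib 3.10.9 for figures.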

Additional observations from a re-analysis of the deposited data

Results flagged for a closer look

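The same contrast gave opposite directions past 1.5-fold in different media for inv1 and mal1. With 1 library per condition none of these differences between media was tested. For inv1 the label with php5∆ over the tup11∆/tup12∆ label gave a TPM ratio of 2.302 in glucose-starved and 0.6288 in glucose-rich medium. For mal1 the tup11∆/tup12∆ label over WT gave 1.771 in glucose-rich and 2.563 in nitrogen-starved medium but 0.4796 in glucose-starved medium. The label with php5∆ over the tup11∆/tup12∆ label gave 1.546 and 7.372 for mal1 in glucose-rich and glucose-starved medium but 0.4995 in nitrogen-starved medium. Both glucose-rich ratios of mal1 depended on the setting. The 1.546 was 1.38 with size factors, and the 1.771 was 1.438 with 10 TPM added to each value, each under 1.5-fold.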

How the results depend on the processing

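No paired analysis was possible because each group had 1 library and the groups share fewer than 2 replicate numbers. Of 240 ratios of the 4 genes under other pseudocounts and scalings, 9 changed direction, all of inv1, agl1 and sut1 in glucose-starved medium between the tup11∆/tup12∆ label and WT, and none of them was past 2-fold. Of 192 counts of genes past 2-fold under the alternatives, 177 were within 1.5 times the reported count. The reported count was 0 for lower genes in 10 of the 12 comparisons and for higher genes in 2, and a count of 0 cannot fall. Some falls at 3-fold also lie within that bound. In nitrogen-starved medium the 3 genes higher with the tup11∆/tup12∆ label than in WT became 2, against 2.93% of features at 3-fold. In glucose-starved medium the 4 higher where php5∆ joins the label became 3, against 3.14% of features at 3-fold. With a pseudocount of 10 TPM the count on nitrogen starvation of WT was 3 of 4, against 11.6% of features. Under that pseudocount, ratios whose lower library is a WT one with little inv1 or agl1 mRNA were smaller. At 3-fold the count on glucose starvation with the tup11∆/tup12∆ label was 2 of 4, against 7.42% of features. The 1 gene lower in glucose-starved medium in that label against WT, mal1, became 0 with a pseudocount of 10 TPM, at 3-fold and under all 3 other scalings. The 1 gene lower in nitrogen-starved medium where php5∆ joins the label, also mal1, became 0 with a pseudocount of 1 or 10 TPM, at 3-fold and under all 3 scalings. At 1.5-fold the counts for php5∆ in the label were 2 higher and 1 lower in glucose-rich medium, against 11.1% and 4.12% of features. In nitrogen-starved medium 1 was higher at 1.5-fold, against 10.6% of features. For each of these calls the cause was not tested. By Spearman's rank correlation 1 of the 3 most alike features was shared for each gene. Motif matches in 1000 bases before the start codon were 2 for inv1, 6 for agl1, 5 for mal1 and 2 for sut1, and before the transcript start 3, 6, 6 and 5. Depth did not limit the 4 genes, with at least 495 reads in every library, but counting intervals hold no variation between cultures.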
